A study of Mus musculus with 2 samples.

Results

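The genes described here encode the collagens, the laminins with their nidogen linkers, and the integrins. They were chosen by symbol: every non-control probe whose gene name follows the pattern of a collagen chain, a laminin alpha, beta or gamma chain, Nid1, Nid2 or an integrin alpha or beta subunit was taken. This gave 83 genes of 32946 on the array and 190 probes of 56605, divided into 44 collagens, 13 laminins and nidogens, and 26 integrins.

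Collagens are secreted chains that wind into triple helices from glycine-rich repeats, and the choice of chains decides whether a fibril, a sheet or a beaded filament is built. Laminins are cross-shaped trimers of an alpha, a beta and a gamma chain that, with type IV collagen sheets and the nidogens that join them, form the basement membrane on which epithelia such as the epiblast and the neural tube rest. Integrins are pairs of an alpha and a beta subunit in the cell membrane that bind these proteins outside the cell and the actin skeleton inside it, so a subunit works only with a partner.

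Total RNA was measured on one-colour Agilent microarrays, 1 array for each of 2 groups. Both groups were mouse 46C embryonic stem cells, a line with a GFP reporter at the Sox1 locus, which had been left to aggregate in suspension in a medium with serum replacement and were collected on day 5 of a neural differentiation protocol. The first group was wild type and the second was labelled KO-Linc1548, a knockout of a long non-coding RNA that no probe on the array names. The labels do not say how the knockout was made or how many clones it covers, and no agent other than the medium is named. The comparison asks what differs in these genes when Linc1548 is lost during neural conversion. With 1 array a group there was no spread between samples to test against, so every difference below describes these 2 arrays and has no replicate check.

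Signals in the text are scaled so that both arrays share a 75th percentile of 751, and differences are log2 values of the knockout array minus the wild type array. A gene was counted as measured where at least 1 of its probes lay well above background on both arrays, and its difference is the median over such probes. The scanning software called 61.4% of probes well above background in the wild type and 58.5% in the knockout, and none was saturated. In 298 probes printed in several spots, the spot-to-spot SD of a difference was 0.096 on the log2 scale, which covers error within an array and not the spread between cultures. The arrays differed widely beyond the matrix genes: 6 of 6 naive pluripotency markers passed 2-fold upward in the knockout (median log2 difference 3.15, summed signal 6583 in the wild type and 68388 in the knockout), and 6 of 6 neural progenitor markers passed 2-fold downward (median −2.86, summed signal 93319 and 9578). All 12 were well above background on both arrays. They differed alongside every result below, and their part in any of them was not tested. Fewer cells of a type and less RNA per cell cannot be told apart in such bulk RNA.

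Collagens were 12 of the 15 members at least 2-fold lower in the knockout, integrins held both extremes among members measured on both arrays, and the laminins and nidogens lay beyond 2-fold in both directions. Of 60 members measured on both arrays, 15 (25.0%) passed 2-fold downward in the knockout and 7 (11.7%) upward, against 8.81% downward, 11.5% upward and 20.3% in either direction among 18671 genes measured on both arrays. The median difference of the 60 members was −0.03, with 30 values above 0 and 30 below, and the median of all genes was 0.10. Of the collagens, 12 of 30 (40.0%) passed 2-fold downward and 2 (6.67%) upward, with a median of −0.65. Of the laminins and nidogens, 2 of 10 lay beyond 2-fold in each direction (median 0.25). Of the integrins, 1 of 20 passed 2-fold downward and 3 upward (median 0.16). The collagen median stayed below 0 under all 5 scalings and background corrections run, the reported one included (−1.04 to −0.27), whereas the medians of the laminin and integrin classes turned to −0.14 and −0.23 when the arrays were centred on the spike-in controls. With no filter on dim probes, which keeps all 44 collagens, the collagen median was 0.00, with 22 values above 0 and 22 below. The median of all genes under that setting was 0.39.

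**Figure D1:**
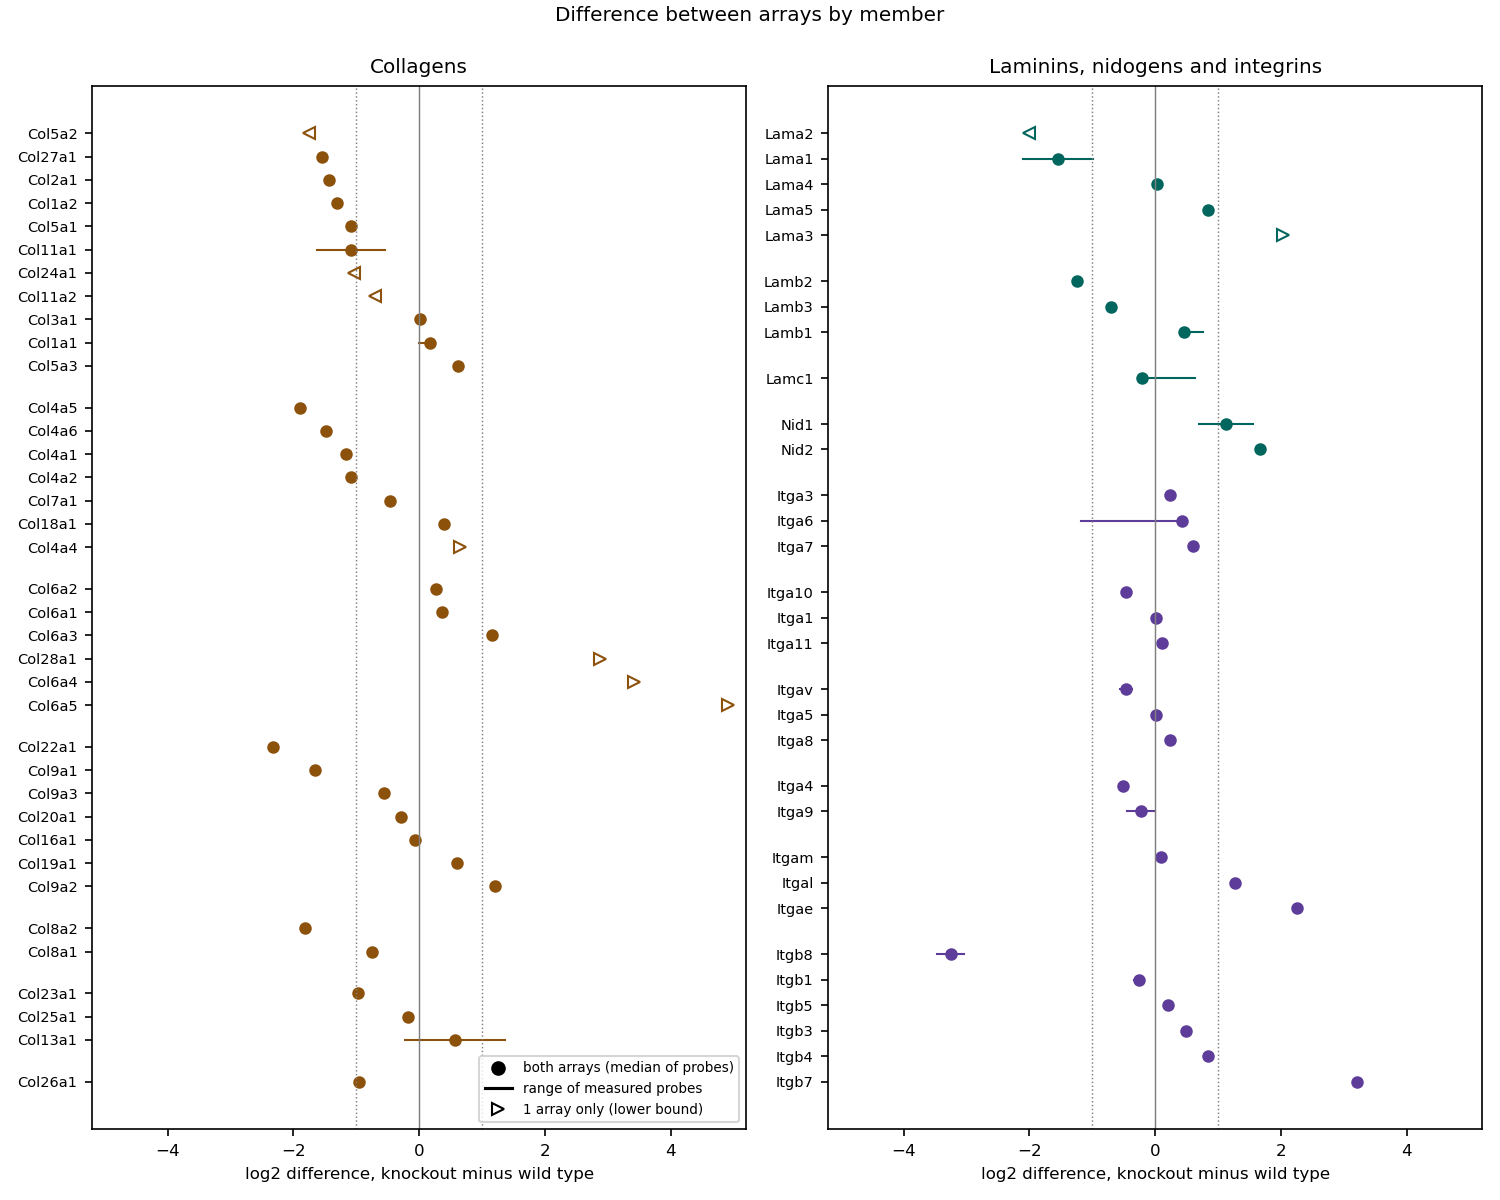
The plot shows the log2 difference, knockout minus wild type, of the members on the horizontal axis, with filled points for the median over probes measured on both arrays, lines for the range of those probes and open triangles for lower bounds of members well above background on 1 array only; dotted lines mark 2-fold and gaps separate the classes. Fibrillar and basement membrane collagens lie mostly left of 0, and the open triangles of Col28a1, Col6a4 and Col6a5 lie far to the right. Itgb8 and Itgb7 stand at the ends of the integrins. The 12 members not well above background on either array are left out. Col12a1 and Col17a1 are left out because no bound above 1 could be given, and 1 other member is not shown.

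Fibrillar collagens, which pack side by side into the cables of connective tissue and cartilage, lay mostly lower in the knockout. Of 8 measured, 5 passed 2-fold downward and 0 upward, with a median of −1.09. Col2a1, the chain of the cartilage fibril that the early neuroepithelium and notochord also make, read 2342 in the wild type and 872 in the knockout, a difference of −1.43. Col1a2, the α2 chain of type I collagen, read 2033 and 823 (−1.31), and 2 more of its probes were well above background in the wild type only (74.4 and 31.0, at least 2.40-fold lower, and 27.9 and 6.98, with no fold given). Col5a1, whose product starts fibrils and limits their width, read 1352 and 637 (−1.09). These genes read lower in the knockout by 2.12-fold to 2.69-fold.

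Col27a1, a fibrillar chain of cartilage, read 152 and 52.1, a difference of −1.54 that shrank to −0.76 after normexp background correction. Col11a1, a minor chain of the cartilage fibril, was measured by 2 probes of the same transcript that disagreed in size. The probe nearer the 3′ end read 758 in the wild type and 245 in the knockout (−1.63), and the probe nearer the 5′ end read 83.4 and 57.3 (−0.54). The resulting median of −1.08 became −0.72 after normexp correction. Both genes were thus within 2-fold after that correction.

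The 3 fibrillar collagens within 2-fold were Col3a1, Col1a1 and Col5a3. Col5a3, an alternative chain of type V collagen, was the highest of the class, at 74.3 in the wild type and 114 in the knockout (0.62). Col3a1, the chain of reticular fibres, read 259 and 260.5 (0.01), although a second probe of the gene was above background in the knockout only (8.20 and 46.9, at least 2.20-fold higher). Col1a1 had 3 measured probes at 0.17, 0.20 and 0.00, and for 2 of its probes, printed in 10 spots on each array, the SD between spots was 0.067 to 0.139. The 2 chains of type I collagen, which join in 1 molecule, thus differed by a gap of 1.48: Col1a2 was 2.47-fold lower, and Col1a1 was within 2-fold, at −0.22 with spike-in centring.

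A further 3 fibrillar chains were well above background in the wild type only. For such genes the fold is a lower bound, the signal on the brighter array over whichever was higher on the dimmer array, the probe's own signal or the weakest signal that any probe had above background (21.3 in the wild type and 30.5 in the knockout, scaled). Col5a2, the usual partner of Col5a1 in type V collagen, read 103 in the wild type and 23.4 in the knockout, at least 3.38-fold lower on the latter. Col24a1 read 62.7 and 20.7, at least 2.06-fold lower, and Col11a2, a further chain of the cartilage fibril, read 49.4 and 22.8, at least 1.62-fold lower. Mesenchyme and fibroblasts are cell types known for fibrillar collagen, and their markers were all measured: 1 of 7 passed 2-fold upward and 1 downward, the median was −0.45 and the summed signal was 3698 in the wild type and 4192 in the knockout. Thy1 passed upward (395 and 1778) and Twist1 downward (117 and 39.8), and 5 of the 7 values lay below 0. The part of these cell types in the result was not tested.

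Type IV collagens, the sheet-forming chains of every basement membrane, were lower in all 4 chains measured on both arrays. Col4a1 read 4561 in the wild type and 2031 in the knockout (−1.17), and Col4a2 read 1884 and 886 (−1.09). These chains join in the α1α1α2 trimer that embryonic basement membranes share, and their differences lay 0.08 apart, less than the spot-to-spot SD of a difference. Col4a5 read 519 and 139 (−1.90), and Col4a6, with which it forms the α5α5α6 trimer, read 657 and 236 (−1.48). All 4 stayed at least 2-fold lower under each of the 5 scalings and background corrections.

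The type IV genes lie as head-to-head pairs in the RefSeq annotation, Col4a1 beside Col4a2, Col4a6 beside Col4a5 and Col4a4 beside Col4a3, so that each pair shares the stretch between its starts. In the RefSeq promoter table (build GRCm38.p6) the starts of the first pair are read in opposite directions and overlap by 22 bases at chr8:11312805-11312826. The RefSeq gene table of the same build ends Col4a1 at 11312889, which makes the overlap 85 bases, so the extent depends on the table and the stretch shown lies within both. The sequence is shown because both genes of the pair gave nearly the same difference. It is written 5′ to 3′ on the plus strand, on which Col4a2 is read, with a GC box (GGGCGG) in capitals.

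Col4a1 and Col4a2 starts: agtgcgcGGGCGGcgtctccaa

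In the remaining pair, whose chains belong to the adult kidney filter, Col4a4 was well above background in the knockout only (5.26 in the wild type and 33.6 in the knockout, at least 1.58-fold higher) and Col4a3 was not well above background on either. Thus 2 of the pairs had both genes lower, and the other pair was near or below background. The remaining basement membrane collagens were within 2-fold. Col18a1, a heparan sulfate collagen whose end fragment is endostatin, read 17452 and 22867 (0.39, or −0.00 with spike-in centring). Col7a1, the chain of anchoring fibrils under skin, read 1043 and 754 (−0.47), and Col15a1 was not well above background.

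Parietal endoderm, a cell type that deposits a thick basement membrane rich in type IV collagen and laminin, was represented by 8 markers, all measured. Of these, 3 passed 2-fold downward and 0 upward, with a median of −0.35 and a summed signal of 57462 in the wild type and 42067 in the knockout. Those lower were Plat, the tissue plasminogen activator (−2.62), Pth1r, the receptor of parathyroid hormone-related protein (−1.58), and Thbd, or thrombomodulin (−1.19). Sparc, a matrix protein and the brightest marker of the list, was at −0.55, and the transcription factors Gata6 (0.28), Gata4 (0.24), Sox7 (−0.15) and Sox17 (−0.00) were within 2-fold. Visceral endoderm markers went the other way, with 5 of 6 at least 2-fold higher, a median of 1.47 and a summed signal of 2212 and 6557. The part of either cell type in the type IV collagen values was not tested.

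Collagens of the beaded filament class, the type VI chains that surround cells in a fine mesh and the related Col28a1, held most of the members seen in the knockout only. Over all genes, 2.9% were well above background in the knockout only and 4.83% in the wild type only, against 5 (6.02%) and 6 (7.23%) of the 83 members. Of the 5, 3 belong to this class. Col6a5, an alternative to the Col6a3 chain of type VI collagen, read 17.8 in the wild type and 640 in the knockout, at least 30.0-fold higher on the latter. Its other 2 probes read 4.72 and 150.5 (at least 7.07-fold) and 4.38 and 131 (at least 6.14-fold), so 3 of 3 probes stood above background in the knockout alone.

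Col6a4, another such alternative, read 15.7 in the wild type and 228 in the knockout, at least 10.7-fold higher. Col28a1, a beaded filament chain of peripheral nerve, read 4.32 and 157, at least 7.38-fold higher. Col6a5 and Col6a4 are neighbours on chromosome 9 and lie beside Col6a6, which was not well above background on either array. The 250 bases before the starts of both detected genes are shown because these neighbours were detected together in the knockout. They come from RefSeq (build GRCm38.p6), at chr9:105960644-105960893 for Col6a5 and chr9:106096692-106096941 for Col6a4, both on the minus strand and written 5′ to 3′ towards the start. Capitals mark GC boxes (GGGCGG, or CCGCCC on the other strand) and a CCAAT box.

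Col6a5 promoter: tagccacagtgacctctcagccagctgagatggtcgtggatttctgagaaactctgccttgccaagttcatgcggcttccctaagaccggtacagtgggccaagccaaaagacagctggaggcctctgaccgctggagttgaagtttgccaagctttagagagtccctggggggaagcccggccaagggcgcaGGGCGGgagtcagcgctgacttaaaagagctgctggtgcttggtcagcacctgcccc

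Col6a4 promoter: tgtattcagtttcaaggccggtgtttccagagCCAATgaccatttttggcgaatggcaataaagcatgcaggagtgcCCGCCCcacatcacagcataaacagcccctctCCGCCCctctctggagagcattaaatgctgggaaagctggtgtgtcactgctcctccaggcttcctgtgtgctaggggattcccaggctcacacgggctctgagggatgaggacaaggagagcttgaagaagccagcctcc

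The Col6a5 window held 1 GC box, 57 bases before the start, and the Col6a4 window held 2, at 141 and 173 bases, with a CCAAT box at 218 bases. Because the title of the study names OCT6 and SOX2, the octamer of POU factors (ATGCAAAT) and a SOX core (AACAAT) were searched too, on both strands, over the same 250 bases of 65 promoters that RefSeq lists for 59 members. The octamer was in 2 of these promoters (3.08%), those of Col25a1 and Col3a1, against 1.60% of 32851 promoters. The SOX core was in 4 (6.15%), those of Col3a1, Itga8, Itgax and Itgb6, against 9.42%. The GC box was in 32 (49.2%) against 32.7%, the CCAAT box in 18 (27.7%) against 33.8%, and a TATA box (TATAAA) in 5 (7.69%) against 12.4%. These matches describe letters in a window and were not read as binding. None of these motifs contains another, though their ends can overlap.

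The common chains of type VI collagen were measured on both arrays. Col6a1 read 256 in the wild type and 330.4 in the knockout (0.37, or −0.03 with spike-in centring). Its neighbour and partner Col6a2 read 32.9 and 39.8 (0.27, or −0.12 with spike-in centring), while another of its probes was above background in the wild type only (47.3 and 6.40, at least 1.55-fold lower). Col6a3, the standard chain beside them, read 65.7 and 147 (1.16), 2.23-fold higher in the knockout but within 2-fold with spike-in centring (0.76) and normexp correction (0.78). A second probe of Col6a3 was above background in the knockout only, at 15.0 and 36.1, at least 1.70-fold higher. Its sequence is shown because it displays the collagen repeat itself: the capitals mark 6 glycine codons (GGN), each opening a Gly-X-Y triplet. The file places it at chr1:92689602-92690594 on the minus strand (mouse build mm9), a span longer than the probe, so it crosses an exon junction.

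Col6a3 probe: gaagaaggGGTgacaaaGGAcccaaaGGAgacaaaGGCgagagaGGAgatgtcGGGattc

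FACIT collagens, chains with broken helices that sit on the surface of fibrils, included the lowest collagen. Col22a1, found at junctions between tissues such as muscle and tendon, read 2473 in the wild type and 493 in the knockout, a difference of −2.33, or 5.02-fold lower. Its other probe, of the same transcript, was not well above background on either array (16.8 and 19.5). Among the 7 FACIT genes measured, 2 passed 2-fold downward and 1 upward, with a median of −0.29. The 3 chains of type IX collagen, which assemble in 1 molecule on cartilage fibrils, took different directions. Col9a1 read 340.4 and 108 (−1.66), and Col9a3 read 75.0 and 50.8 (−0.56). Col9a2 read 359 and 831 (1.21, or 0.82 with spike-in centring). The gap between Col9a1 and Col9a2 was 2.87 and ranged from 2.18 to 2.91 over the 5 scalings and background corrections.

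The other FACIT genes were within 2-fold or dim. Col19a1, the neighbour of Col9a1 on the chromosome, was the highest of those within 2-fold, at 53.8 and 82.1 (0.61), so these neighbours differed in direction. Col20a1 read −0.29 and Col16a1 −0.07 as log2 differences. Col12a1 was above background in the wild type only, at 26.5 against 27.0 in the knockout, so no fold is given, and Col14a1 was not well above background on either array.

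The short-chain collagens, which form the hexagonal sheets under the corneal and vascular endothelium, had values below 0 in both measured chains, of which 1 passed 2-fold. Col8a2 read 389 in the wild type and 111 in the knockout (−1.81), and its partner Col8a1 read 190.2 and 114 (−0.74, within 2-fold). Col10a1, the collagen of hypertrophic cartilage, was not well above background. Of the endothelial markers, 3 of 5 were measured (median 0.87), with Tek at least 2-fold higher, Cdh5 and Emcn were above background in the wild type only, and the summed signal was 241 and 427. Their part in the type VIII values was not tested.

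Collagens anchored in the cell membrane were within 2-fold in all 3 measured genes. Col23a1 was the lowest, at 72.3 and 36.7 (−0.98), with a second probe above background in the wild type only (86.1 and 26.3, at least 2.83-fold lower). Its difference passed 2-fold with quantile normalization (−1.12), loess normalization (−1.06) and spike-in centring (−1.37) and shrank to −0.18 after normexp correction. Col13a1 was the highest at 0.57, but its 2 measured probes gave −0.22 (46.2 and 39.7) and 1.37 (45.1 and 116). Col25a1 read 57.0 and 50.2 (−0.18, or 0.10 after normexp correction), and Col17a1, a hemidesmosome collagen, read 28.1 in the wild type against 25.2, not well above background, in the knockout, with no fold given. Col26a1, a collagen outside these classes, gave −0.93 and −0.99 in 2 probes, a median just inside the 2-fold limit that became −1.35 with spike-in centring.

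**Figure D2:**
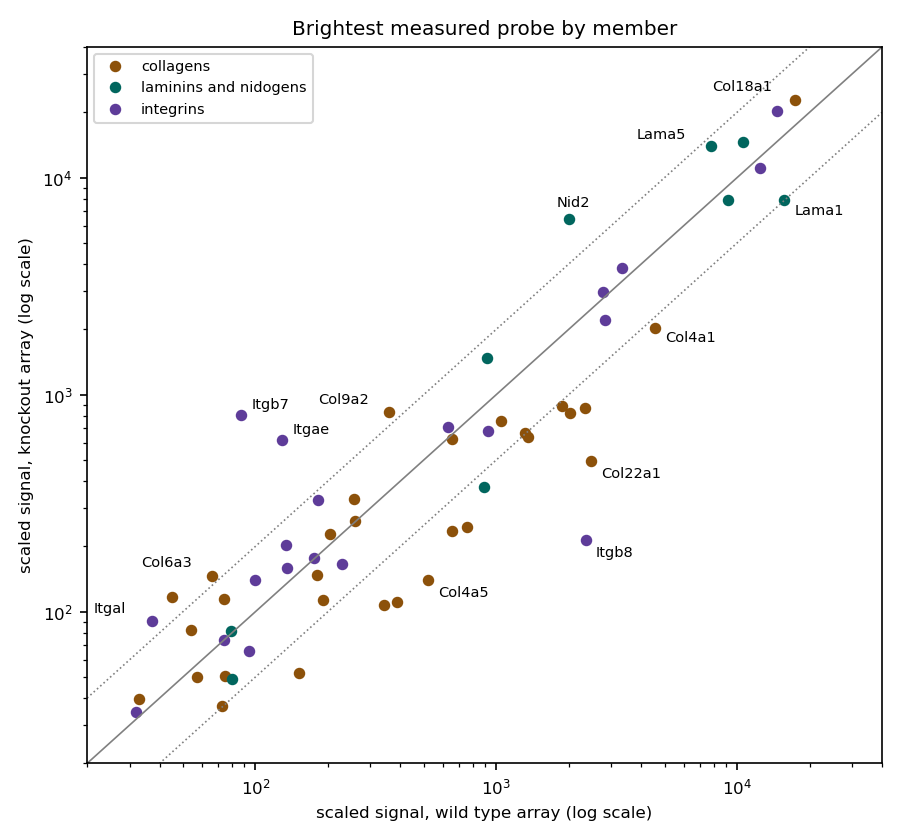
The plot sets the scaled signal in the knockout (vertical, log scale) against that in the wild type (horizontal, log scale) for the brightest probe of the members measured on both arrays, coloured by class, with a solid line for equality and dotted lines for 2-fold. Most collagens lie below the solid line, Col18a1 and Lama5 are bright and within 2-fold, and Itgb7, Itgae and Itgb8 lie far outside the dotted lines.

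Among the chains of laminin-111 and laminin-511, Lama1 lay beyond 2-fold through the median of its probes, and Lama5, Lamb1 and Lamc1 were within 2-fold. Lama1, the alpha chain of laminin-111 and among the first to be made in the embryo, was measured by 2 probes. The probe on the curated transcript read 15633 in the wild type and 7851 in the knockout (−0.99), and a probe on a cDNA clone read 198 and 45.9 (−2.11). Their median of −1.55 placed Lama1 at least 2-fold lower, whereas the curated probe alone lay just inside 2-fold. Lama5, the alpha chain of laminin-511, on which pluripotent cells grow, read 7807 and 14031 (0.85, or 0.45 with spike-in centring). The gap between the Lama1 median and Lama5 was 2.40 and was at least 1.94 under the 5 scalings and background corrections. The curated Lama1 probe alone, at −0.99, lay nearer to Lama5 than that median did.

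Lamb1, the common beta chain of both trimers, had 3 measured probes between 0.44 and 0.76, and the brightest read 10555 and 14580. Lamc1, the common gamma chain, had 2 probes at −0.21 and another at 0.64, and the brightest read 9166 and 7903. Lamb2, the beta chain of synapses, vessels and kidney, was the lowest of the beta and gamma chains, at 891 and 377 (−1.24), and stayed at least 2-fold lower under all 5 settings. Lamb3, the beta chain of the laminin of epidermal anchoring, read 79.6 and 48.7 (−0.71, or −1.10 with spike-in centring and −0.15 after normexp correction). Another Lamb3 probe was above background in the knockout only and differed the other way (12.9 and 35.9, at least 1.69-fold higher).

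Lama2, the alpha chain of muscle and glial laminin, was above background in the wild type only (122 and 24.2, at least 4.01-fold lower in the knockout). Lama3, the alpha chain of the epidermal laminin, was above background in the knockout only (11.5 and 87.0, at least 4.08-fold higher). Lama4, a chain of vessel walls, read 79.3 and 81.2 (0.04). Lamc3 was not well above background. Across the 5 alpha chains, the wild type array therefore read higher for Lama1 and Lama2, and the knockout array for Lama3 and Lama5.

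Both nidogens, which bridge laminin and type IV collagen, read higher in the knockout. Nid2 read 2013 in the wild type and 6435 in the knockout on its curated transcript (1.68), and a probe on a cDNA clone was above background in the knockout only (21.2 and 108, at least 5.08-fold). For Nid1, the probe on the curated transcript read 913 and 1479 (0.70) and a dim probe on a clone read 30.6 and 89.8 (1.55). The Nid1 median of 1.12 therefore passed 2-fold through the clone probe, and it was 0.73 with spike-in centring and 0.72 after normexp correction. The bridge proteins and the type IV chains they bind thus differed in opposite directions, with Nid2 3.20-fold higher and Col4a1 2.25-fold lower.

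Integrin beta subunits held the largest differences among members measured on both arrays. Itgb8, which pairs with the αv subunit to release active TGF-β from its latent complex and is a receptor of the neuroepithelium, was the lowest. Its brightest probe read 2351 in the wild type and 213 in the knockout (−3.46), and a second read 817 and 99.8 (−3.03). Another 2 probes were above background in the wild type only (217 and 22.7, at least 7.13-fold lower, and 65.6 and 6.31, at least 2.15-fold lower). All 4 probes thus read lower in the knockout, and the gene value of −3.25 (9.50-fold lower) ranged from −3.64 to −2.69 over the 5 settings. Itgav, the alpha partner, read 2840 and 2212 on its brightest probe and had a gene value of −0.46, so partner and beta subunit differed by 2.79.

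Itgb7, the beta subunit of lymphocyte homing receptors, was the highest such member. It read 87.0 in the wild type and 802 in the knockout (3.21, 9.22-fold higher). Itgae, the αE subunit that joins with β7 to bind E-cadherin, was next. It read 129.5 and 619.8 on the 1 of its 2 probes that was measured (2.26, 4.79-fold higher). Both partners of this receptor thus read higher in the knockout, under all 5 scalings and background corrections. Itgal, the alpha subunit of the leukocyte receptor LFA-1, read 37.3 and 90.6 (1.28, or 0.89 with spike-in centring and 0.77 after normexp correction). Its beta partner Itgb2 was not well above background on either array.

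The remaining leukocyte subunits did not share this pattern. Itgam, which also pairs with Itgb2, read 2775 and 2974 (0.10, or −0.29 with spike-in centring). The other Itgam probe was not well above background on either array (15.1 and 17.6). The chromosomal neighbours of Itgam, Itgax and Itgad, were not well above background. Of the blood markers, 4 of 5 were measured and 1 was at least 2-fold higher. This was Ptprc, at 2232 and 5564 on the 1 of its 7 probes that was measured on both arrays. The median of the list was 0.51. The summed signal was 3338 in the wild type and 6779 in the knockout, most of it from that probe. Spi1, a defining factor of myeloid cells, was not well above background on either array. The part of the blood markers in the values of Itgb7, Itgae and Itgal was not tested.

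The subunits that embryonic cells use as general matrix receptors were within 2-fold. Itgb1, the partner of most alpha subunits, read 12504 and 11103 on its brightest probe and −0.26 over its 2 measured probes. Itgb5, an αv partner that binds vitronectin, read 3320 and 3835 (0.21, or −0.18 with spike-in centring). Itgb4, the α6 partner in hemidesmosomes, was the highest beta subunit within 2-fold, at 183 and 328 (0.84), and Itgb3 read 99.4 and 139.8 (0.49). Itgb6 was not well above background.

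The laminin-binding alpha subunits were within 2-fold. Itga6, the main laminin receptor subunit of embryonic stem cells, had 3 measured probes at 0.39, 0.46 and 0.49, the brightest at 14662 and 20237. Another measured probe ran the other way, at 6519 in the wild type and 2871 in the knockout (−1.18). This probe, at chr2:71690633-71690692 on the plus strand (mm9), is shown beside 2 probes of other genes because they share letters. It has 42 bases in common with a probe of the zinc finger gene Zfp975, which read 9095 and 7368 (−0.30), and 25 bases with a probe of 6720475J19Rik, which read 497 and 333 (−0.58). Capitals mark the shared run, in the first line that shared with Zfp975.

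Itga6 probe: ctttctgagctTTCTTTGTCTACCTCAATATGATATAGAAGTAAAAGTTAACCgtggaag

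Zfp975 probe: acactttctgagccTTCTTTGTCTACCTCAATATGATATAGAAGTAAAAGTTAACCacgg

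6720475J19Rik probe: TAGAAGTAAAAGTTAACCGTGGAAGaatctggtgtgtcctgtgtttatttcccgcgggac

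It was the 1 probe of the 190 that shared 25 or more bases with a probe of another gene, so its reading is uncertain, although it counts in the median. That median, 0.43, stayed above 0 under all 5 settings. With spike-in centring it was 0.04, less than the spot-to-spot SD of a difference. Itga7, a laminin receptor of muscle, read 134 and 203 (0.60), and Itga3, a receptor of laminin-511, gave 0.24, or −0.15 with spike-in centring.

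Among the collagen-binding subunits, the value of Itga1 depended on the probe. The probe that counted as measured on both arrays lies on a cDNA clone and read 73.7 and 74.4 (0.01). Both probes of the curated transcript were above background in the knockout only, at 25.0 and 516 (at least 20.7-fold higher) and at 20.0 and 101 (at least 4.77-fold higher), and a further clone probe read 4.28 and 33.3 (at least 1.56-fold). The gene value of 0.01 therefore left out every probe of the curated transcript. The 3 probes are shown because they give different readings of 1 gene. Both curated probes are placed by the file across introns, at chr13:115821387-115825525 and chr13:115756765-115758419, and the clone probe lies in 1 piece at chr13:115801115-115801174, all on the minus strand (mm9, of which no annotation was used here), with no part in capitals.

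Itga1 junction probe nearest the 5′ end: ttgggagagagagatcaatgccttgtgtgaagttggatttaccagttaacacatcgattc

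Itga1 junction probe nearest the 3′ end: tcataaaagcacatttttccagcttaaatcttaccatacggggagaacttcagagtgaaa

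Itga1 clone probe: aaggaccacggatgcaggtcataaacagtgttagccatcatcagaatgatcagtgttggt

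The neighbour of Itga1, Itga2, another collagen receptor, was not well above background. Itga10 read 229 and 166 (−0.46) and Itga11 read 31.9 and 34.3 (0.11, or negative under quantile normalization, loess normalization and spike-in centring). The curated probe of Itga11 nearer the 3′ end was above background in the wild type only, at 65.8 and 30.9, at least 2.13-fold lower in the knockout. Of the subunits that bind the RGD motif of fibronectin and vitronectin, Itgav was the lowest at −0.46 and Itga8 the highest at 135 and 159 (0.24), with Itga5 at 175 and 177 (0.02) and Itga2b not well above background. Itga4, whose receptors bind fibronectin and VCAM-1, read 93.8 and 66.1 (−0.50), and the related Itga9 gave −0.22 over 2 probes. None of these passed 2-fold.

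**Figure D3:**
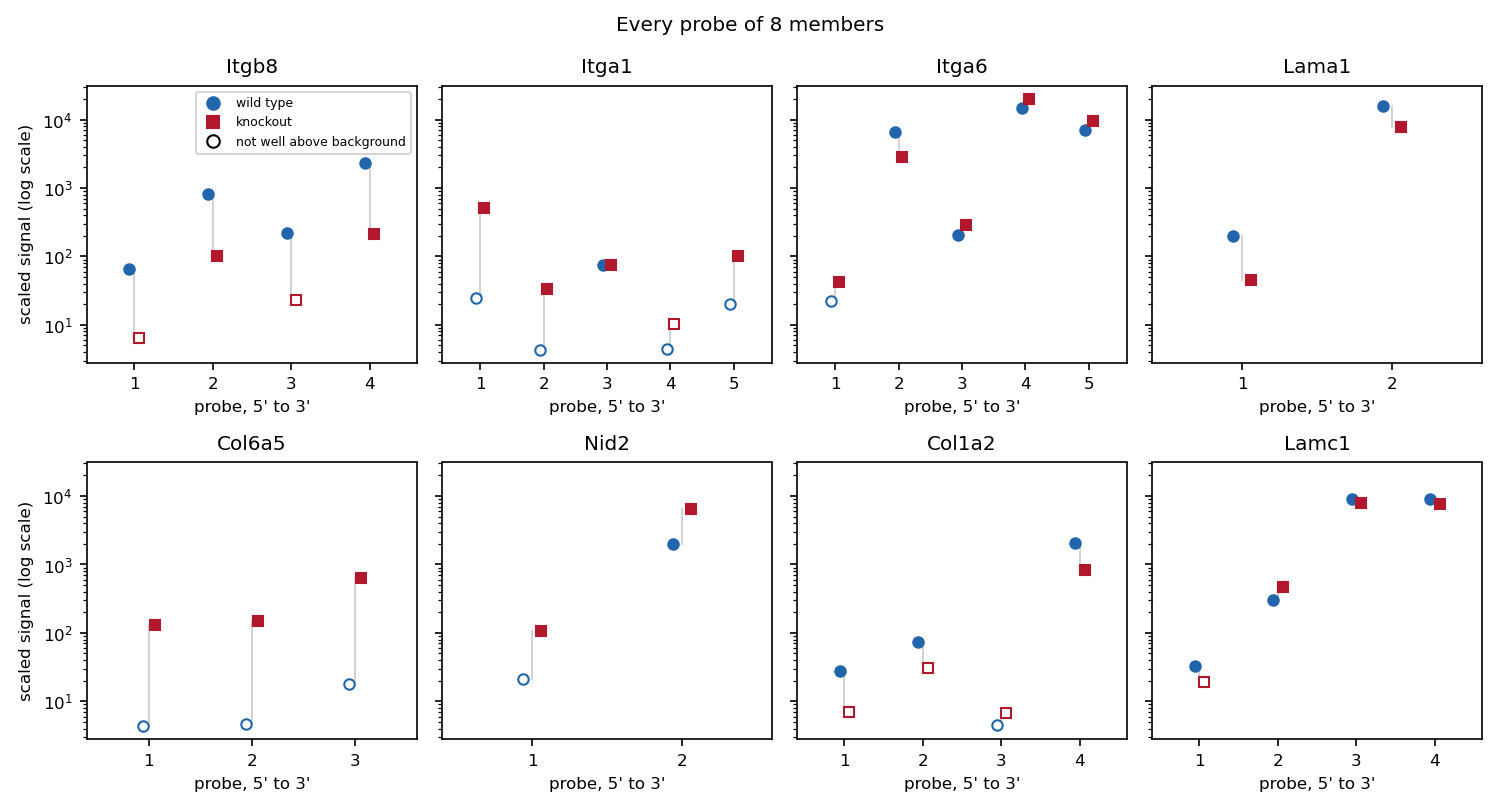
Each panel shows the scaled signal (vertical, log scale) of every probe of 1 member, ordered from the 5′ to the 3′ end along the horizontal axis, with circles for the wild type array, squares for the knockout array and open symbols for signals not well above background. The 4 Itgb8 probes and the 3 Col6a5 probes each differ in 1 direction, whereas the probes of Itga1, Itga6 and Lama1 differ in size or direction.

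Probes of 1 gene agreed better for some members than for others. Of 14 members with several measured probes, 4 spanned over 1 on the log2 scale (Col11a1, Col13a1, Itga6 and Lama1), and 46 members rest on 1 measured probe. The probe nearest the 3′ end gave the lower difference in 9 of the 14 and the higher in 5, with a median of −0.15 for the 3′ probe minus the 5′ probe. Of the 190 probes, 79 were well above background on both arrays, 18 in the wild type only, 15 in the knockout only and 78 on neither.

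Genes that make, bind or cut the same matrix were listed by role and read beside the members. Of the enzymes and chaperones that process collagen, 17 of 21 were measured, 3 passed 2-fold upward and 2 downward (median 0.14). Adamts14, which removes the amino-terminal propeptide of fibrillar collagens, was the highest, at 318 in the wild type and 1863 in the knockout on its brightest probe (2.56). Loxl3, a crosslinking oxidase, was the lowest at 132 and 49.9 (−1.41). Also beyond 2-fold, and picked out once their values were known, were Pcolce2 (2.30) and Pcolce (1.80), enhancers of carboxy-terminal propeptide removal, and Bmp1 (−1.02), the enzyme that removes it. The 3 measured probes of Bmp1 ran from −2.05 to −0.82. The enhancers and the enzyme thus lay on opposite sides of 0.

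Other basement membrane components and laminin receptors were measured for 14 of 15 genes, with 0 past 2-fold upward, 2 downward and a median of −0.60. Frem1, which anchors epithelium to the matrix beneath, was the lowest at 3517 and 753 (−2.22). Bcam, a laminin-511 receptor, was the highest at 0.59. The second gene beyond 2-fold, named after its value was seen, was Pxdn (−1.19), a peroxidase that crosslinks type IV collagen, which was lower alongside the chains it joins.

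Other integrin ligands had the widest range of the 5 role lists. Of 11 measured of 12, 3 passed 2-fold upward and 3 downward, with a median of −0.10. Vtn, vitronectin, a ligand of the αv receptors, read 4875 in the wild type and 253 in the knockout (−4.27, 19.3-fold lower). Spp1, osteopontin, read 1112 and 8922 (3.00, 8.03-fold higher). Fn1, fibronectin, named after its value was seen, had 4 probes between 1.06 and 1.70 and a median of 1.52.

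The cytoplasmic partners that couple integrins to actin were measured for 16 of 18 genes, with 0 past 2-fold upward and 3 downward (median −0.06). Parva, an actin-binding partner of the kinase Ilk, was the lowest at 925 and 329 (−1.75), and Tns3, a tensin, was the highest at 0.95. Also beyond 2-fold, and picked out once their values were known, were Tns1 (−1.29) and Ilk (−1.04). The 3 measured probes of Tns1 ran from −1.93 to −0.21. Its brightest probe, at 1030 and 888 (−0.21), lay within 2-fold. Matrix proteases and their inhibitors were measured for 9 of 11, with 1 past 2-fold upward and 3 downward (median −0.20), among them the inhibitors Timp1 as the highest (1083 and 2341, 1.11) and Timp3 as the lowest (4099 and 972, −2.21). Neural crest markers were measured for 5 of 5, with 1 at least 2-fold higher (Foxd3, also a pluripotency factor), 0 lower, a median of −0.04 and a summed signal of 624 and 1362, and their part was not tested.

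**Figure D4:**
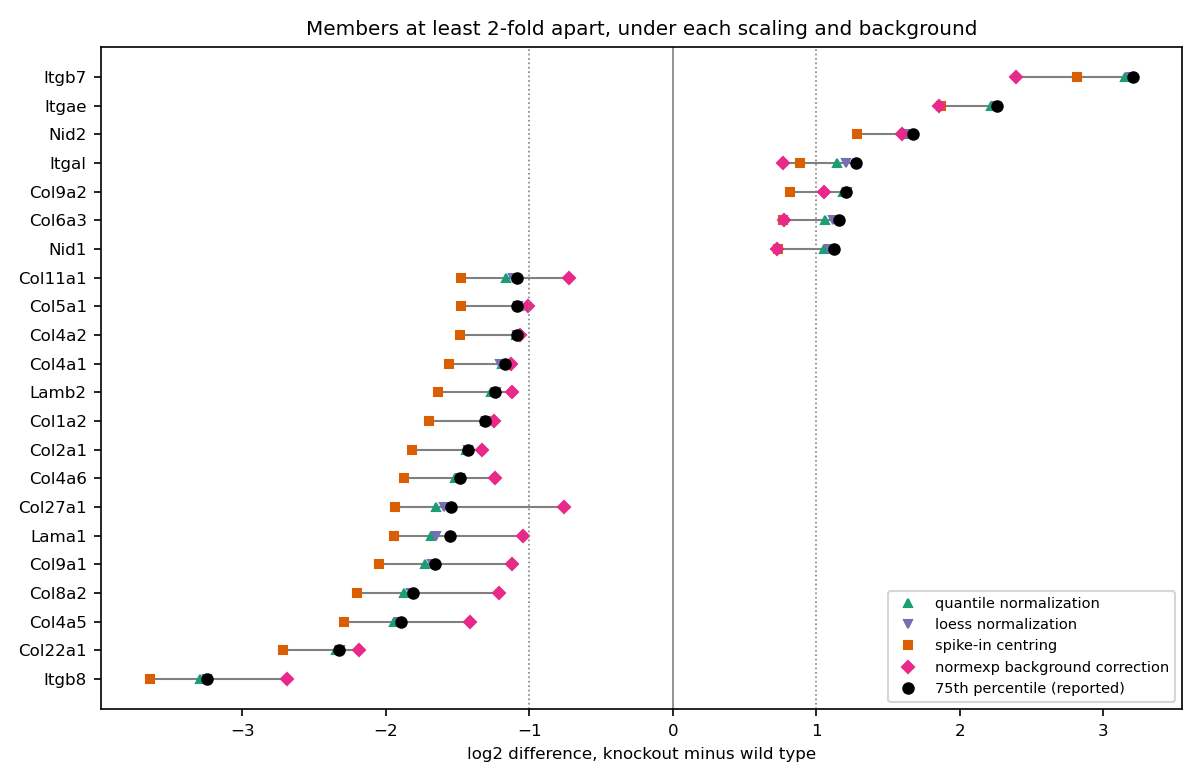
The plot shows the log2 difference of each of the 22 members at least 2-fold apart under the reported scaling on the 75th percentile (black circles) and under quantile normalization, loess normalization, spike-in centring and normexp background correction (other symbols); dotted lines mark 2-fold. No symbol crosses 0, and 16 of the 22 members stay beyond the dotted lines under all 5, while Itgal, Col9a2, Col6a3, Nid1, Col11a1 and Col27a1 do not.

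The choice of scaling decided some calls and no direction among the members beyond 2-fold. Of these 22 members, 13 stayed at least 2-fold lower and 3 (Itgb7, Itgae and Nid2) at least 2-fold higher under all 5 scalings and background corrections, as the plot of scalings shows. Among the members within 2-fold, 15 changed sign under at least 1 of them, so no direction is read from their values. Col10a1, Col14a1, Col15a1, Col4a3, Col6a6, Itga2, Itga2b, Itgad, Itgax, Itgb2, Itgb6 and Lamc3, 12 members in all, were not well above background on either array, which does not show that they were unexpressed.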

How the data were processed

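The spot tables came from Agilent Feature Extraction (version 10.7.1.1 in the submitters' processing notes). They hold intensity per spot on a linear scale: per the file headers, background was subtracted and trends within each array were corrected, and low signals were replaced by a surrogate, and the deposited mean and local background intensities served the normexp alternative. The labels' extraction text describes ground tissue although cultured cells were used. The number of arrays limits the precision.

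Spots marked as outliers (173 in the wild type, 155 in the knockout) were dropped, the spots of a probe were averaged as log2 values, and each array was centred on its 75th percentile (864 and 652 before scaling). A probe was measured where 0.5 or more of its spots were called well above background on each array. A fixed limit of 2-fold replaced a test. Symbols were set against RefSeq (GRCm38.p6): 128 member probes matched by accession and 62 by symbol, and 0 members were renamed. Probe positions are mm9.

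Every member may be named, except that 1 is not reported here or drawn, although the counts include it. Both signals are given for members beyond 2-fold or seen on 1 array only and for the ends of each class, and each related list is represented by its highest and lowest gene; the parietal endoderm markers are all named, a choice made after their values were seen. Members and lists were chosen with earlier results of these data known. No probe bears the name Linc1548, so the knockout was not checked on the arrays.

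Alternatives were quantile normalization, loess of the difference on the mean log2 signal, and normexp (offset 50) with limma 3.58.1 in R 4.3.3, centring on 8 spike-in probes, no filter, a filter at a scaled signal of 100, the brightest probe and 2 others added after the data were seen. Tables were made with pandas 2.3.3 and numpy 2.4.6. The gene median and the 2-fold limit were tried on simulated data with spot noise within an array. The scaling, the background calls, the bounds and the spread between cultures were not simulated.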

Additional observations from a re-analysis of the deposited data

How the results depend on the processing

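No paired analysis was possible because each group has 1 array, and no array could be left out. The median log2 difference of all genes was 0.10 as reported, −0.00 with quantile and 0.02 with loess normalization, −0.29 with spike-in centring and 0.13 after normexp correction. Counts below are of members at least 2-fold higher or lower. With spike-in centring, which lowers every difference alike, 3 of 60 members, 0 collagens and 1 of the laminins and nidogens were higher. Lower under that centring were 19 members, 15 of 30 collagens and 3 of the laminins and nidogens. The members' median was −0.42, and the split over all genes was 7.44% higher and 16.0% lower. After normexp correction, 4 members, 1 collagen and 1 nidogen were higher, and 13 members and 10 collagens were lower. Over all genes, that correction gave 8.34% higher and 5.61% lower. Without the filter on dim probes, 15 of 83 members and 8 collagens were higher, 2 integrins were lower and the median was 0.27. Over all genes kept by that setting, 12.3% were higher and 7.85% lower, and the median was 0.39. With the filter at a scaled signal of 100, fewer genes remained: 3 of 43 members were higher (1 collagen, 1 integrin, 1 nidogen). There, 1 laminin was lower and the members' median was −0.26. Of all genes left, 8.77% were higher and 8.14% lower, with a median of 0.07. With the brightest probe of a gene, 1 nidogen was higher and 1 laminin lower, against 11.6% of all genes higher and 9.37% lower. For 2 alternatives chosen after seeing the data, probes of curated RefSeq transcripts left 0 integrins lower, since the Itgb8 probe kept was above background on 1 array only, with 1 nidogen higher and 1 laminin lower. Over all genes, the curated probes gave 11.96% higher and 9.74% lower. Raising dim signals to the lowest measured signal gave 11 of 71 members and 4 collagens higher, and 19 members and 15 collagens lower. Of all genes kept there, 13.53% were higher and 9.12% lower. Of 520 values of single members, 489 stayed on their side of 2-fold, 18 fell within it, 13 passed it and 0 changed direction while past it. Apart from these constructions, the cause was not tested. Signals near background limit the members seen on 1 array only.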
